A study of Mus musculus with 6 samples.

Results

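The transcripts described were those of 10 core genes of the circadian clock: Per1, Per2, Per3, Cry1, Cry2, Arntl, Clock, Nr1d1, Nr1d2 and Dbp. They were found by name among the 20475 genes of an RNA-seq table, and all 10 were present once and passed the filter on low values, which kept 15025 genes. The table covered 6 libraries of NIH3T3, an immortalised mouse embryonic fibroblast line, at passage 5 and grown in DMEM with fetal bovine serum. In each of 3 groups there were 2 libraries, made 48 h after the cells received PBS, extracellular vesicles (EVs) of MCF10A cells or EVs of MDA-MB-231 cells. EVs are the membrane-bound particles that cells release. MCF10A is a non-tumorigenic human breast epithelial line, MDA-MB-231 is a human triple-negative breast cancer line, and the EVs were given in PBS at a fixed number per recipient cell. All groups therefore shared the serum, the vehicle, the line and the time, and the recipient was 1 line of immortalised cells. The labels do not say that the 2 libraries of a group came from separate cultures, so the p-values measure only the spread between these libraries, which may be technical.

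The mammalian clock is a transcriptional feedback loop that runs in nearly every cell, cultured fibroblasts included. The proteins CLOCK and BMAL1, the product of Arntl, bind E-boxes as a pair and activate the Per and Cry genes, Nr1d1, Nr1d2 and Dbp, and the PER and CRY proteins then inhibit that pair. In a second loop the nuclear receptors REV-ERBα and REV-ERBβ, the products of Nr1d1 and Nr1d2, repress Arntl through elements called ROREs, at which the ROR receptors activate. DBP, TEF and HLF activate genes through D-boxes, Per genes among them, and NFIL3 represses at the same elements. Serum, glucocorticoids and cAMP act on Per1 and Per2 in fibroblast cultures and set the phase of the cells' rhythms.

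Each library held between 22451173 and 29315530 gene reads and reads for 14553 to 14856 genes. The 9 fibroblast markers were all present, and their summed level was 15024 to 17027 CPM, the reads of a gene per mega-read of its library. Of 5 epithelial markers, Epcam and Krt18 had 0 reads in every library, and the 5 summed to 1.17 to 1.93 CPM. The leukocyte markers Ptprc, Cd3e and Cd79a summed to 0.04 to 0.17 CPM, with Cd3e at 0 in every library. The 3 endothelial markers summed to 11.43 to 14 CPM with PBS and MCF10A EVs and to 6.01 and 7.39 CPM with MDA-MB-231 EVs, nearly all of it Cdh5.

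The sequences below show elements of the 2 loops beside the members whose levels are compared. They were taken from RefSeq for build GRCm38.p6, whose windows of 250 bases before to 50 after a transcript start covered 9 of the 10 members, with Per2 the other. They are written 5′ to 3′ on the gene's strand, the 4 longer ones covering the 250 bases before the start. The capitals mark a RORE of Arntl, the D-boxes of Per3, the E-box of Per1, the E-box and the variant E′-box of Cry1, and the E′-box of Nr1d1.
Arntl, chr7:113207528-113207557, plus strand: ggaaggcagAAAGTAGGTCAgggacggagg
Per3, chr4:151044666-151044915, minus strand: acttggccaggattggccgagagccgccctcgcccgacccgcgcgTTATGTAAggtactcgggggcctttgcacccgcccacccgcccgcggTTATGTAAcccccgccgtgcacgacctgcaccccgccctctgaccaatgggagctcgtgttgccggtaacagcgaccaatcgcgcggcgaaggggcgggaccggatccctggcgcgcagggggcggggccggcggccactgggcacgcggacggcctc
Per1, chr11:69098699-69098948, plus strand: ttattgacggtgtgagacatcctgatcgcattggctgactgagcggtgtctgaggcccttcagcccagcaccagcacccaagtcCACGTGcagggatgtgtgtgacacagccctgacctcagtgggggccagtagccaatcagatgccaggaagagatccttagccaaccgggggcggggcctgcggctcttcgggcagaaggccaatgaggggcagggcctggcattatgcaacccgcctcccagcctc
Cry1, chr10:85185055-85185304, minus strand: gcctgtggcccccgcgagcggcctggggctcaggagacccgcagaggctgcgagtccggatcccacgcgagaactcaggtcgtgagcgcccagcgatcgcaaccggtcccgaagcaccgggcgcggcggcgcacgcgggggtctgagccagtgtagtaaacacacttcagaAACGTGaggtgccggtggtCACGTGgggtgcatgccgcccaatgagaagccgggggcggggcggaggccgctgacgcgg
Nr1d1, chr11:98775378-98775627, minus strand: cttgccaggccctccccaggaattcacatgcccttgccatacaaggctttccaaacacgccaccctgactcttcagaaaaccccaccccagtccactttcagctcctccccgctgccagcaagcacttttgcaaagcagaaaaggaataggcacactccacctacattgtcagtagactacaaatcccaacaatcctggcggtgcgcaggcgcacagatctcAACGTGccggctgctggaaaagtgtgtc

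The motifs were searched on both strands in all 32851 windows. The E-box, CACGTG, was in 7.15% of the windows and in those of Per1 and Cry1. The E′-box, CACGTT, was in 4.68% of the windows and in those of Cry1, Cry2 and Nr1d1. The D-box, TTANGTAA, was in 2.32% of the windows, and of the members in that of Per3, at positions -205 and -158 from the start. The RORE was searched in a form that ends in AGGTCA or GGGTCA. It was in 0.384% of the windows and, among the members, in that of Arntl, beginning 26 bases after the second of its RefSeq starts. The full cAMP response element, TGACGTCA, was in 1.79% of the windows, and 0 of the 9 members had it there. A match in such a window is a description of the letters and no evidence of a bound factor.

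The first comparison asks how the clock transcripts of fibroblasts stood after vesicles of a cancer line, and the second how they stood after vesicles of a non-tumorigenic line, each against the vehicle. With either kind of vesicle, Arntl fell most clearly among the members, Per1, Per2 and Cry1 fell by less, and Nr1d1 rose. Per3 and Nr1d2 rose with MDA-MB-231 EVs, and Cry2 fell with MCF10A EVs. Levels are given as normalised reads, that is, reads adjusted by the authors to a common library size, and changes on the scale of log2(normalised reads + 1). Rose and fell refer to a limma test across all 15025 genes with a Benjamini-Hochberg adjusted p under 0.05, and other members are given by their values.

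Of the 10 members, 3 were called higher and 4 lower with MDA-MB-231 EVs than with PBS, while 34.8% of all genes tested were called, 17.9% higher and 16.9% lower. With MCF10A EVs 1 member was called higher and 5 lower, beside 31.7% of all genes, 17.1% higher and 14.6% lower. Calls are more frequent among well-covered genes: of the 10309 genes with a mean of at least 100 normalised reads, which include every member but Dbp, 47.2% were called with MDA-MB-231 EVs (24.7% higher, 22.5% lower) and 43.3% with MCF10A EVs (24.3% higher, 19.1% lower). The median log2 change of the members was -0.10 with MDA-MB-231 EVs and -0.23 with MCF10A EVs, against 0.01 and 0 for all genes tested. The libraries of the 2 groups did not overlap for 10 of 10 members with MDA-MB-231 EVs and 8 of 10 with MCF10A EVs, the exceptions being Per3 and Clock, while 65.9% and 64.2% of all genes did not overlap. The 7 calls with MDA-MB-231 EVs fell to 4 without PBS replicate 2 or without MDA-MB-231 EV replicate 1, and to 3 without MDA-MB-231 EV replicate 2. Some other tools kept fewer calls too: DESeq2 on the recovered reads kept those of Arntl, Per3 and Nr1d2, and limma without a trend kept those of Arntl, Per2 and Per3, while edgeR kept all 7. With MCF10A EVs DESeq2 lost that of Cry2, limma without a trend those of Cry1 and Nr1d1, and edgeR kept all 6. The 2 comparisons share their PBS libraries, so each stands on its own values, and calls in one are no support for the other. The cells were sampled at a single time, so a shift in the phase of a rhythm and a change in its mean level cannot be told apart. In whole cultures, fewer cells with a transcript and less of it per cell cannot be told apart either.

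**Figure D1:**
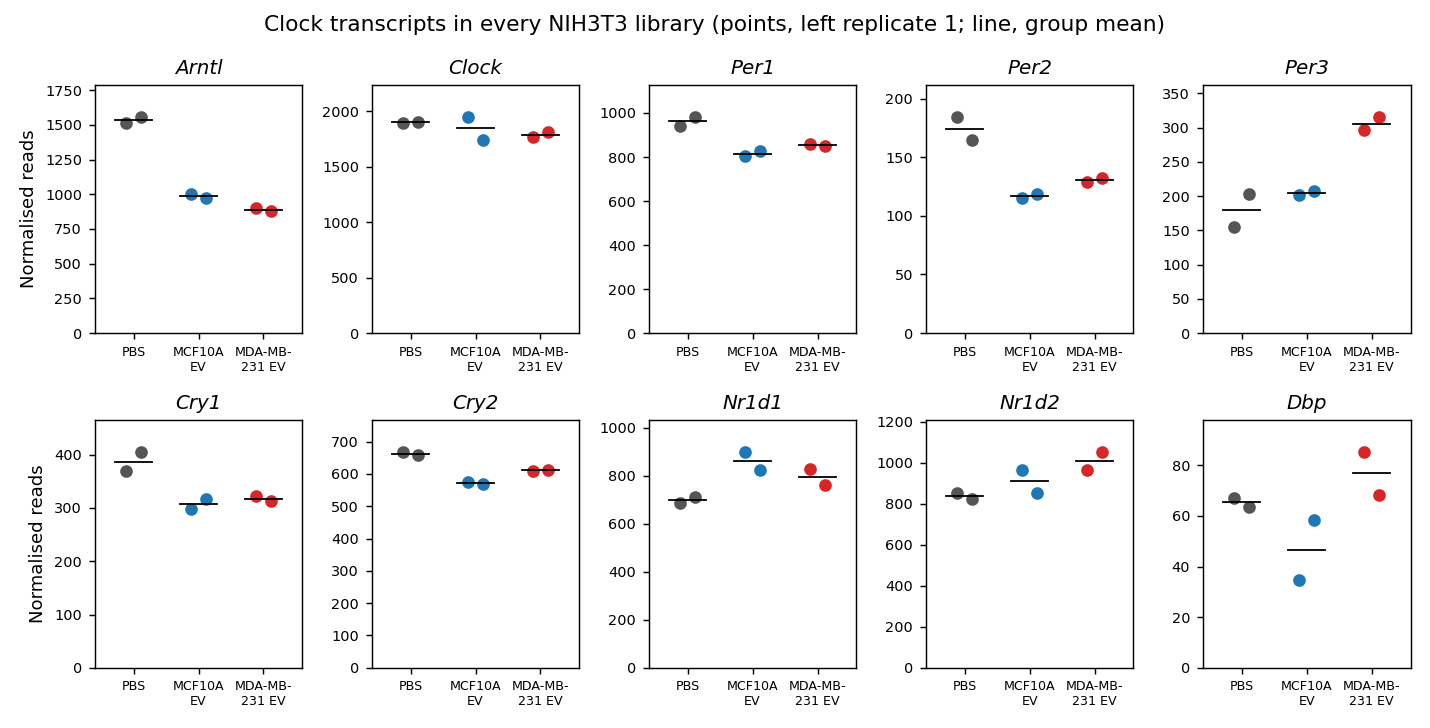
Normalised reads (vertical axes, from 0) of the 10 clock genes in each library of the PBS (grey), MCF10A EV (blue) and MDA-MB-231 EV (red) groups, points being libraries and lines group means. The PBS libraries of Arntl sit at 1513 and 1555, above all 4 EV libraries, and the MDA-MB-231 EV libraries of Per3 at 297 and 315, above the other 4.

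**Figure D2:**
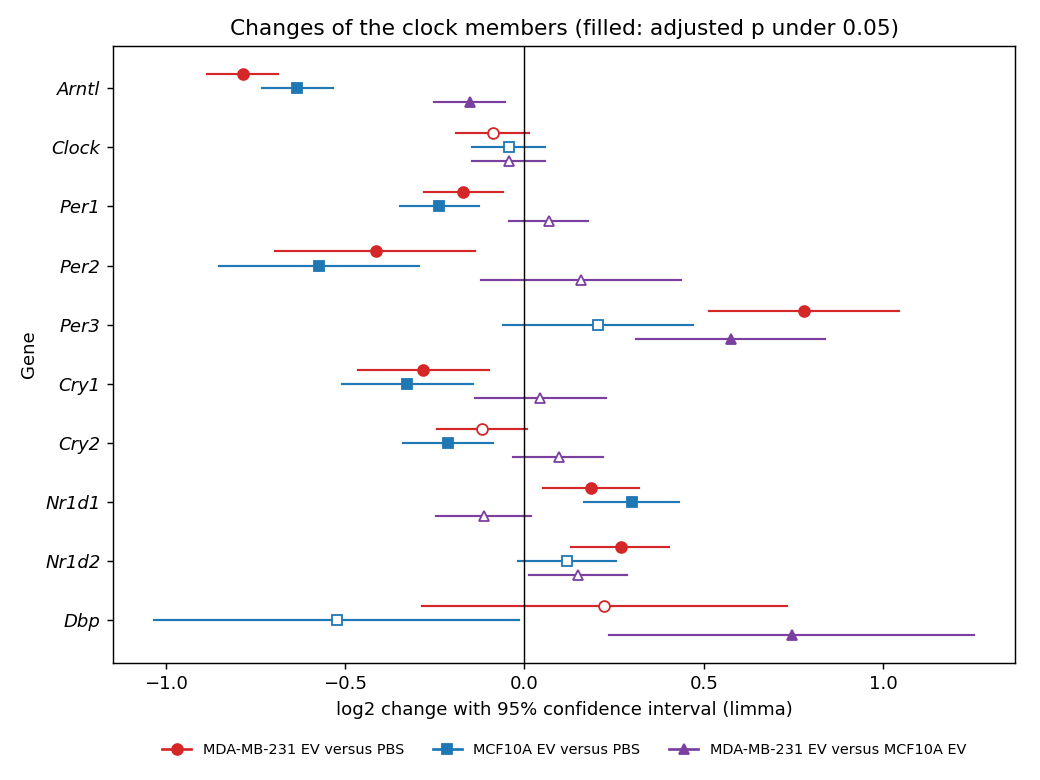
log2 change of each clock gene (horizontal axis) with its 95% confidence interval from limma, for MDA-MB-231 EVs against PBS (red circles), MCF10A EVs against PBS (blue squares) and MDA-MB-231 against MCF10A EVs (purple triangles), filled where the adjusted p was under 0.05. Arntl lies farthest to the left against PBS, at -0.79 and -0.63, and Per3 farthest to the right with MDA-MB-231 EVs, at 0.78.

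The activating arm differed between its partners. Arntl, on chromosome 7, encodes BMAL1, and it stood at 1513 and 1555 normalised reads in the PBS libraries, 1003 and 975 in the MCF10A EV libraries, and 898 and 882 in the MDA-MB-231 EV libraries. Both PBS libraries were higher than all 4 EV libraries, and the replicates of each group lay close together. Its mean fell from 1534 ± 29.6 to 889.7 ± 11.5 normalised reads (SD, n = 2) with MDA-MB-231 EVs, 1.72-fold, a log2 change of -0.79 (SE 0.046, limma adjusted p = 6.28e-09). With MCF10A EVs it fell to 989 ± 20.1, 1.55-fold, a log2 change of -0.63 (SE 0.046, adjusted p = 1.42e-07). Under the 18 alternative settings and left-out libraries these 2 log2 changes stayed within -0.80 to -0.72 and -0.65 to -0.61, and all 18 kept each call.

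Clock, on chromosome 5, encodes the partner of BMAL1, and it stood at 1897 and 1903 normalised reads in the PBS libraries, 1946 and 1746 in the MCF10A EV libraries, and 1764 and 1812 in the MDA-MB-231 EV libraries. Its EV libraries lay on both sides of the PBS libraries with MCF10A EVs and below them with MDA-MB-231 EVs. Neither change was called: the log2 change was -0.09 with MDA-MB-231 EVs (95% confidence interval -0.19 to 0.01, adjusted p = 0.18) and -0.04 with MCF10A EVs (95% confidence interval -0.15 to 0.06, adjusted p = 0.542). These intervals leave room for a fall of up to 0.19 on the log2 scale, which is far smaller than the change of Arntl. Without MCF10A EV replicate 2 its value with MCF10A EVs was 0.03 (adjusted p = 0.658), on the other side of 0. Npas2, which encodes a stand-in for CLOCK, had 1.10 to 3.04 normalised reads in all libraries. Arntl2, the paralog of Arntl, had 21.4 to 38.9 and was not called in any comparison.

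The period genes did not move together. Per1 and Per2 encode the PER proteins best known as repressors of CLOCK and BMAL1, and both were lower with EVs. Per1, on chromosome 11, stood at 943 and 980.5 normalised reads in the PBS libraries, 803 and 829 in the MCF10A EV libraries, and 859 and 851 in the MDA-MB-231 EV libraries. The 2 PBS libraries were the highest, and the 4 EV libraries spanned a narrow range below them. It fell from 962 ± 26.4 to 816 ± 18.2 normalised reads with MCF10A EVs, a log2 change of -0.24 (SE 0.051, adjusted p = 0.00235). With MDA-MB-231 EVs it fell to 855 ± 6.16, a log2 change of -0.17 (SE 0.051, adjusted p = 0.0178), which rests on 3 of the libraries: it was -0.14 (adjusted p = 0.13) without PBS replicate 2, -0.18 (adjusted p = 0.0526) without MDA-MB-231 EV replicate 1 and -0.16 (adjusted p = 0.0743) without MDA-MB-231 EV replicate 2. With libraries scaled to equal totals it was -0.10 (adjusted p = 0.132).

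Per2, on chromosome 1, is a direct target of serum and glucocorticoid signals in fibroblasts. It stood at 184 and 165 normalised reads in the PBS libraries, 115 and 119 in the MCF10A EV libraries, and 129 and 132 in the MDA-MB-231 EV libraries. Again the PBS libraries were the highest, and the MCF10A EV libraries the lowest. It fell 1.49-fold with MCF10A EVs, from 175 ± 13.5 to 117 ± 2.64, a log2 change of -0.57 (SE 0.13, adjusted p = 0.00333). With MDA-MB-231 EVs it fell 1.33-fold to 131 ± 2.19, a log2 change of -0.42 (SE 0.13, adjusted p = 0.0217), and that call was lost at -0.34 (adjusted p = 0.157) without PBS replicate 1, -0.40 (adjusted p = 0.0783) without MDA-MB-231 EV replicate 1 and -0.43 (adjusted p = 0.0563) without MDA-MB-231 EV replicate 2. The calls of Per1 and Per2 with MCF10A EVs held under all 18 alternatives, with adjusted p of at most 0.0386 and 0.0467.

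Per3, on chromosome 4, encodes the third PER protein, which is a weaker repressor and is not needed for rhythms in mice. It stood at 155 and 203 normalised reads in the PBS libraries, 202 and 208 in the MCF10A EV libraries, and 297 and 315 in the MDA-MB-231 EV libraries. Both MDA-MB-231 EV libraries were above the other 4, whereas the MCF10A EV libraries lay beside the higher PBS library, and PBS replicate 1 was the lowest of all. With MDA-MB-231 EVs it rose 1.72-fold, from 179 ± 34.2 to 306 ± 13.1 normalised reads, a log2 change of 0.78 (SE 0.124, adjusted p = 0.000141). The call held under all 18 alternatives, with values from 0.59 without PBS replicate 1 to 0.97 without PBS replicate 2. With MCF10A EVs its mean was 205 ± 4.04 and the log2 change 0.20 (95% confidence interval -0.06 to 0.47, adjusted p = 0.24), which is no call. Here too the PBS library decided the value: it was 0.01 (adjusted p = 0.969) without PBS replicate 1 and 0.40 (adjusted p = 0.0373) without PBS replicate 2.

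Of the cryptochrome genes, which encode the partners of the PER proteins and the stronger repressors of CLOCK and BMAL1, Cry1 fell with both EVs and Cry2 with MCF10A EVs. Cry1, on chromosome 10, stood at 369 and 405 normalised reads in the PBS libraries, 299 and 318 in the MCF10A EV libraries, and 322 and 313 in the MDA-MB-231 EV libraries. All 4 EV libraries lay below both PBS libraries and close to each other. It fell from 387 ± 25.6 to 308 ± 13.1 normalised reads with MCF10A EVs, 1.25-fold, a log2 change of -0.33 (SE 0.085, adjusted p = 0.00852). With MDA-MB-231 EVs it fell to 318 ± 6.01, 1.22-fold, a log2 change of -0.28 (SE 0.085, adjusted p = 0.0177). The first call was lost at -0.26 (adjusted p = 0.0994) without PBS replicate 2 and -0.28 (adjusted p = 0.0709) without MCF10A EV replicate 1, and the second at -0.21 (adjusted p = 0.159) without PBS replicate 2 and -0.26 (adjusted p = 0.0779) without MDA-MB-231 EV replicate 2.

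Cry2, on chromosome 2, stood at 668 and 658 normalised reads in the PBS libraries, 575 and 568 in the MCF10A EV libraries, and 608 and 613 in the MDA-MB-231 EV libraries. The 3 groups did not overlap, with the PBS libraries highest and the MCF10A EV libraries lowest. It fell 1.16-fold with MCF10A EVs, from 663 ± 7.10 to 572 ± 4.43, a log2 change of -0.21 (SE 0.059, adjusted p = 0.0117), a call lost at -0.20 (adjusted p = 0.0707) without PBS replicate 1 and -0.20 (adjusted p = 0.0624) without MCF10A EV replicate 2. With MDA-MB-231 EVs the mean was 611 ± 3.06, and the log2 change of -0.12 was not called (95% confidence interval -0.24 to 0.01, adjusted p = 0.142). A non-coding gene on the opposite strand, D930015M05Rik, shares 295 exon bases with Cry2 in GENCODE M21, and as the strand used in counting is not given in the sources used here, their reads cannot be told apart.

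Both REV-ERB genes of the second loop rose with MDA-MB-231 EVs, and Nr1d1 rose with MCF10A EVs too. Nr1d1, on chromosome 11, encodes REV-ERBα, a repressor of Arntl, and it stood at 689 and 710.3 normalised reads in the PBS libraries, 899 and 824 in the MCF10A EV libraries, and 831 and 762 in the MDA-MB-231 EV libraries. All 4 EV libraries were above both PBS libraries, and the MCF10A and MDA-MB-231 EV libraries interleaved. It rose from 699.5 ± 15.2 to 862 ± 53.0 normalised reads with MCF10A EVs, 1.23-fold, a log2 change of 0.30 (SE 0.062, adjusted p = 0.00172). With MDA-MB-231 EVs it rose to 796 ± 48.8, 1.14-fold, a log2 change of 0.19 (SE 0.062, adjusted p = 0.0308), a call lost at 0.16 (adjusted p = 0.16) without PBS replicate 1, 0.21 (adjusted p = 0.0739) without PBS replicate 2 and 0.12 (adjusted p = 0.24) without MDA-MB-231 EV replicate 1.

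Nr1d1 overlaps the thyroid hormone receptor gene Thra tail to tail on the other strand, over 263 exon bases in GENCODE M21, and reads of that stretch cannot be told apart. Thra itself stood at 1285 and 1312 normalised reads in the PBS libraries, 1152 and 1199 in the MCF10A EV libraries, and 1334 and 1372 in the MDA-MB-231 EV libraries. It fell with MCF10A EVs, by 0.14 on the log2 scale (adjusted p = 0.0233), and was not called with MDA-MB-231 EVs (log2 change 0.06, adjusted p = 0.345). The rise of Nr1d1 with MCF10A EVs thus stood beside a fall of its neighbour.

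Nr1d2, on chromosome 14, encodes REV-ERBβ, and it stood at 851 and 825 normalised reads in the PBS libraries, 968 and 855 in the MCF10A EV libraries, and 966 and 1053 in the MDA-MB-231 EV libraries. Both MDA-MB-231 EV libraries lay above the PBS libraries, and of the MCF10A EV libraries 1 lay well above and 1 just above them. It rose from 838 ± 18.6 to 1009.6 ± 61.5 normalised reads with MDA-MB-231 EVs, 1.2-fold, a log2 change of 0.27 (SE 0.064, adjusted p = 0.00385), and the value was 0.21 (adjusted p = 0.0526) without MDA-MB-231 EV replicate 2. With MCF10A EVs the log2 change of 0.12 was not called (95% confidence interval -0.02 to 0.26, adjusted p = 0.183).

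Rora, which encodes a receptor that acts against REV-ERB at ROREs, stood at 789 and 753 normalised reads in the PBS libraries, 542 and 534 in the MCF10A EV libraries, and 569 and 549 in the MDA-MB-231 EV libraries. It fell with both EVs, by 0.46 on the log2 scale with MDA-MB-231 EVs (adjusted p = 2.24e-05) and by 0.52 with MCF10A EVs (adjusted p = 1.29e-05). With both EVs Rora fell, Nr1d1 rose and Arntl fell, and a link between these changes was not tested.

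Dbp, on chromosome 7, is an output gene of the loop that encodes a D-box activator, and it was the least read member. It stood at 67.3 and 63.5 normalised reads in the PBS libraries, 34.8 and 58.5 in the MCF10A EV libraries, and 85.3 and 68.5 in the MDA-MB-231 EV libraries, from 62 and 68, 32 and 68, and 84 and 64 reads. The PBS libraries lay between those of the 2 EVs, but the 2 MCF10A EV libraries differed more from each other than the PBS and MCF10A EV means did. Neither change against PBS was called: the log2 change was 0.22 with MDA-MB-231 EVs (95% confidence interval -0.29 to 0.73, adjusted p = 0.523) and -0.52 with MCF10A EVs (95% confidence interval -1.03 to -0.01, adjusted p = 0.113). Without MCF10A EV replicate 2 the latter was -0.89 (adjusted p = 0.0217). Dbp also shares 539 exon bases with Sphk2 on the opposite strand, a gene with 714 to 849.8 normalised reads that was not called in any comparison, and their reads cannot be told apart there.

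The other genes that act on D-boxes were better covered. Nfil3, which encodes the repressor of D-boxes, stood at 3688 and 3662 normalised reads in the PBS libraries, 2368 and 2195 in the MCF10A EV libraries, and 1945 and 1986 in the MDA-MB-231 EV libraries. All 4 EV libraries lay far below the PBS libraries, a fall of 0.90 on the log2 scale with MDA-MB-231 EVs (adjusted p = 2.4e-10) and of 0.69 with MCF10A EVs (adjusted p = 1.33e-08). Hlf, an activator related to DBP, stood at 539.6 and 535 normalised reads in the PBS libraries, 434 and 488 in the MCF10A EV libraries, and 611 and 695 in the MDA-MB-231 EV libraries. It rose by 0.28 with MDA-MB-231 EVs (adjusted p = 0.0114) and fell by 0.22 with MCF10A EVs (adjusted p = 0.0399), but the first value was 0.28 (adjusted p = 0.0586) without PBS replicate 1, 0.27 (adjusted p = 0.0674) without PBS replicate 2 and 0.18 (adjusted p = 0.145) without MDA-MB-231 EV replicate 2, and the second was -0.22 (adjusted p = 0.153) without PBS replicate 1, -0.23 (adjusted p = 0.129) without PBS replicate 2 and -0.14 (adjusted p = 0.308) without MCF10A EV replicate 1. Tef, the third activator of this kind, rose with MDA-MB-231 EVs, from 546 ± 19.4 to 655 ± 3.81 normalised reads, by 0.26 (adjusted p = 0.00698), with 0.23 (adjusted p = 0.0699) without PBS replicate 1. With MCF10A EVs Tef was not called (log2 change 0.05, adjusted p = 0.664). Per3, the member with 2 D-boxes in its RefSeq window, rose with MDA-MB-231 EVs as Hlf and Tef did. Nfil3 fell with both EVs, and Per3 was not called with MCF10A EVs. The calls of Hlf and Tef with MDA-MB-231 EVs were lost in DESeq2 (adjusted p = 0.054 and 0.0578). They were also lost in limma without a trend (adjusted p = 0.118 and 0.0694). The fall of Hlf with MCF10A EVs lost its call in both as well (DESeq2 adjusted p = 0.123, limma without a trend 0.192). Whether any of these factors acted on Per3 was not tested.

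To set the members beside each other, reads were divided by the exon length of GENCODE M21 and by the gene reads of the library, which gives reads per kilobase and mega-read (RPKM). In the PBS libraries the order of levels was Nr1d1, Arntl, Per1, Nr1d2, Clock, Cry1, Cry2, Per2, Dbp and Per3. In this group each neighbour in the order was separate in both libraries, and the gap between Dbp and Per3 was the narrowest, with 0.841 and 0.890 RPKM against 0.635 and 0.836. Nr1d1 had means of 9.0, 11.3 and 10.7 RPKM in the PBS, MCF10A EV and MDA-MB-231 EV groups. Arntl had means of 8.07, 5.29 and 4.90 RPKM in the PBS, MCF10A EV and MDA-MB-231 EV groups, which took it from the second place to below Nr1d2, Per1 and Clock. Clock had means of 5.48, 5.42 and 5.40 RPKM in the PBS, MCF10A EV and MDA-MB-231 EV groups. Per3, the lowest with PBS, had means of 0.736, 0.858 and 1.32 RPKM in the PBS, MCF10A EV and MDA-MB-231 EV groups, which set it above Per2 in all 4 EV libraries. Per2 had means of 1.18, 0.803 and 0.924 RPKM in the PBS, MCF10A EV and MDA-MB-231 EV groups. With MCF10A EVs the order was Nr1d1, Nr1d2, Per1, Clock, Arntl, Cry1, Cry2, Per3, Per2 and Dbp, where the libraries of Clock and Arntl and those of Cry1 and Cry2 overlapped. With MDA-MB-231 EVs it was Nr1d1, Nr1d2, Per1, Clock, Arntl, Cry2, Cry1, Per3, Dbp and Per2, where those of Cry2 and Cry1 met at 3.96 RPKM.

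The ratios between members within a library do not depend on how libraries are scaled, and the pairs given here were picked with their values in view. The ratio of Nr1d1 to Arntl per exon base was 1.11 and 1.12 in the PBS libraries, 2.19 and 2.07 in those with MCF10A EVs, and 2.26 and 2.11 in those with MDA-MB-231 EVs. Nr1d1 and Arntl were thus nearly level in the PBS libraries, and Nr1d1 led in all 4 EV libraries, with the 2 EVs overlapping. The ratio of Per3 to Per2 was 0.509 and 0.747 in the PBS libraries, 1.07 in both MCF10A EV libraries, and 1.40 and 1.45 in the MDA-MB-231 EV libraries. Here the 3 groups did not overlap.

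The third comparison, of the 2 EVs with each other, asks whether the vesicles of the cancer line gave other levels than those of the non-tumorigenic line. Of the members 2 were called higher and 1 lower with MDA-MB-231 EVs, beside 16.9% of all genes tested, 6.84% higher and 10.1% lower, and 23% of the genes with a mean of at least 100 normalised reads (9.1% higher, 13.9% lower). The members' median log2 difference was 0.08, against -0.001 for all genes, and 6 of 10 members had libraries that did not overlap, beside 56.0% of all genes. The count of 3 members became 0 without MCF10A EV replicate 1, and 1 when any single library of the PBS group or of the MDA-MB-231 EV group was left out. Per3 was 1.49-fold higher with MDA-MB-231 EVs, a log2 difference of 0.57 (SE 0.124, adjusted p = 0.00468). This was 0.55 (adjusted p = 0.0536) without MCF10A EV replicate 1, and it lost its call also when limma was run without a trend, at 0.57 (adjusted p = 0.136). Arntl was 1.11-fold lower, a log2 difference of -0.15 (SE 0.046, adjusted p = 0.0347). It lost its call without any one of the 6 libraries, with values from -0.17 to -0.13 and adjusted p from 0.0541 to 0.190. Dbp was 1.68-fold higher, a log2 difference of 0.75 (SE 0.238, adjusted p = 0.044), which rests on MCF10A EV replicate 1: without it the difference was 0.38 (adjusted p = 0.378), and leaving out PBS replicate 1 or 2 or MDA-MB-231 EV replicate 1 or 2 also ended the call, with adjusted p of 0.0714, 0.0697, 0.213 and 0.0588.

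The remaining 7 members were not called between the 2 EVs, and their intervals show how large a difference the data leave room for. Per1 differed by 0.07 (95% confidence interval -0.04 to 0.18) and Per2 by 0.16 (-0.12 to 0.44). Cry1 differed by 0.04 (-0.14 to 0.23) and Cry2 by 0.09 (-0.03 to 0.22). Nr1d1 differed by -0.11 (-0.25 to 0.02), Nr1d2 by 0.15 (0.01 to 0.28) and Clock by -0.04 (-0.15 to 0.06). The interval of Per2 reaches a difference larger than its own change with MDA-MB-231 EVs, so the missing call does not show that its level was alike with both EVs. Without MCF10A EV replicate 1 the difference of Clock was 0.03 (adjusted p = 0.725), on the other side of 0.

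**Figure D3:**
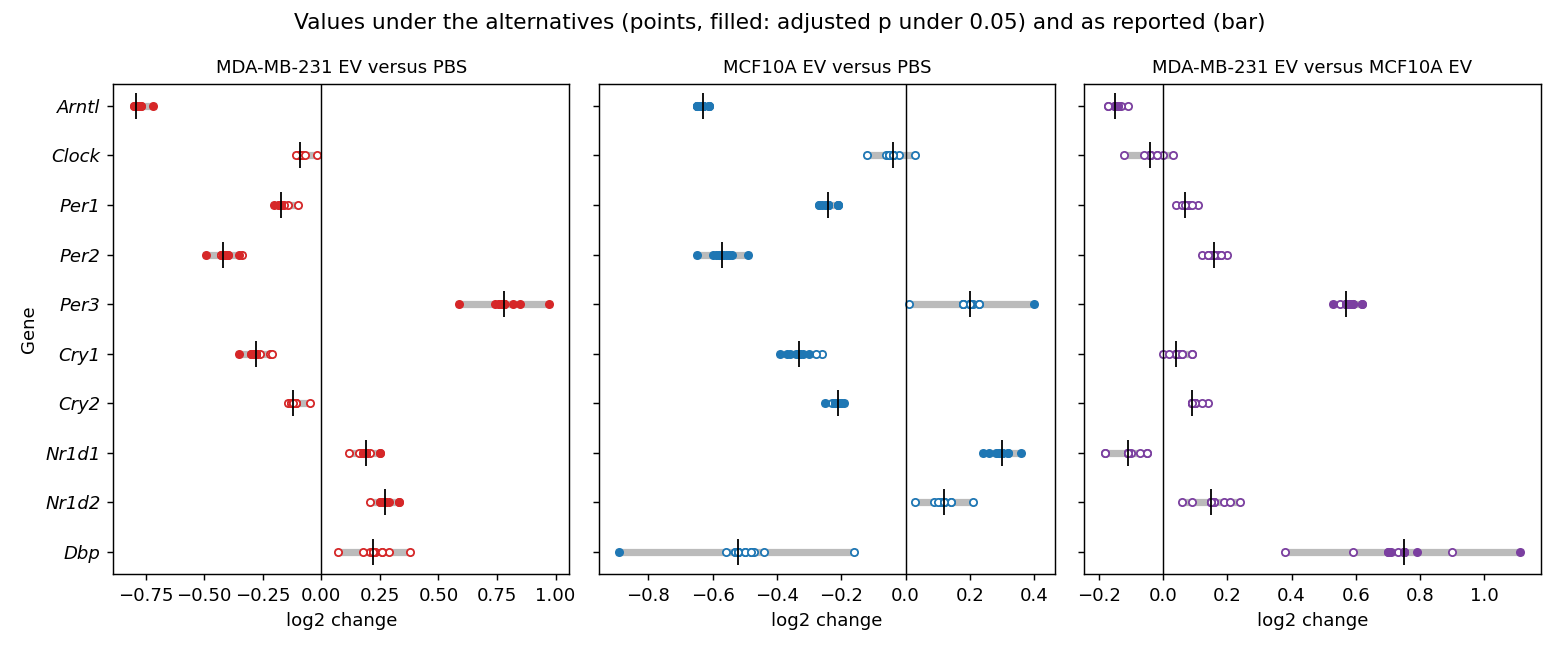
log2 change of each clock gene (horizontal axes) in the 3 comparisons under every alternative setting and left-out library (points, filled where the adjusted p was under 0.05; grey band, their range) and as reported (vertical bar). Arntl and Per3 with MDA-MB-231 EVs and Arntl, Per1 and Per2 with MCF10A EVs are filled throughout against PBS, while Clock crosses 0 in the middle and right panels.

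Around the core loop, 46 further clock genes were listed, of which 45 could be tested. With MDA-MB-231 EVs 11 were called higher and 15 lower (median log2 change -0.05), and with MCF10A EVs 9 higher and 12 lower (median -0.06), counts to be read against the percentages of all genes given above. In the auxiliary transcription factors 2 of 12 rose and 3 fell with MDA-MB-231 EVs, and 1 rose and 6 fell with MCF10A EVs. Bhlhe40, an E-box repressor also called DEC1, fell with both, from 2035 ± 9.16 to 1386 ± 18.0 normalised reads with MCF10A EVs (log2 change -0.55, adjusted p = 1.76e-07) and to 1475 ± 51.8 with MDA-MB-231 EVs (log2 change -0.46, adjusted p = 4.49e-07). Its paralog Bhlhe41 fell with MCF10A EVs, from 229 ± 1.58 to 155 ± 18.9 (log2 change -0.57, adjusted p = 0.0021), and stood at 196 ± 15.9 with MDA-MB-231 EVs without a call (log2 change -0.23, adjusted p = 0.17). Ciart, an E-box target that encodes a repressor of CLOCK and BMAL1, had 70.5 and 68.2 normalised reads with PBS and 33.3 and 33.9 with MCF10A EVs, a log2 change of -1.02 (adjusted p = 0.00138). With MDA-MB-231 EVs Ciart had 53.8 and 48.1 and was not called (adjusted p = 0.117).

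Of 26 tested kinases, ubiquitin ligases and cofactors, 7 rose and 7 fell with MDA-MB-231 EVs, and 5 rose and 5 fell with MCF10A EVs. The shares called among all genes tested were 34.8% with MDA-MB-231 EVs and 31.7% with MCF10A EVs. For genes with a mean of at least 100 normalised reads they were 47.2% and 43.3%. Usp2, a deubiquitinase with rhythmic transcripts, stood at 825 and 829 normalised reads in the PBS libraries, 452 and 437 in the MCF10A EV libraries, and 465 and 517 in the MDA-MB-231 EV libraries. All 4 EV libraries lay far below the PBS libraries, a log2 change of -0.75 with MDA-MB-231 EVs (adjusted p = 5e-07) and -0.89 with MCF10A EVs (adjusted p = 1.97e-07). Timeless, whose product acts mainly at replication forks in mammals, rose from 664 ± 4.37 to 959.6 ± 47.6 with MCF10A EVs and to 1073 ± 23.7 with MDA-MB-231 EVs (log2 changes 0.53 and 0.69, adjusted p = 3.21e-06 and 1.07e-07). Its fork partner Tipin rose by 0.26 and 0.32 (adjusted p = 0.00554 and 0.00091), the first being 0.19 (adjusted p = 0.079) without PBS replicate 1 and 0.22 (adjusted p = 0.0617) without MCF10A EV replicate 1. Csnk1d and Csnk1e encode kinases of the PER proteins. Csnk1e fell by 0.17 with MDA-MB-231 EVs (adjusted p = 0.00803) and by 0.13 with MCF10A EVs (adjusted p = 0.034). Csnk1d fell by 0.09 with MDA-MB-231 EVs (adjusted p = 0.0327) and was not called with MCF10A EVs, at -0.07 (adjusted p = 0.0898). The call of Csnk1d, and that of Csnk1e with MCF10A EVs, ended when any library of the groups compared was left out (adjusted p from 0.0547 to 0.167 and from 0.0529 to 0.199). That of Csnk1e with MDA-MB-231 EVs ended without PBS replicate 2 (-0.16, adjusted p = 0.0612) or MDA-MB-231 EV replicate 2 (-0.13, adjusted p = 0.0769), and scaling to library totals or limma without a trend ended all 3.

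The 7 rhythmic output genes were all called with MDA-MB-231 EVs, 2 higher and 5 lower, and with MCF10A EVs 3 rose and 1 fell. Of all genes tested, 34.8% were called with MDA-MB-231 EVs and 31.7% with MCF10A EVs. Among those with a mean of at least 100 normalised reads the shares were 47.2% and 43.3%. Wee1, a clock-controlled inhibitor of entry into mitosis, rose from 525 ± 18.1 to 677 ± 15.9 with MCF10A EVs and to 842 ± 29.7 with MDA-MB-231 EVs (log2 changes 0.36 and 0.68, adjusted p = 0.000258 and 3.94e-07). Rgs16, a regulator of G protein signalling, fell from 11630.0 ± 101 to 8558 ± 238 and to 4126 ± 285 (log2 changes -0.44 and -1.50, adjusted p = 9.64e-07 and 1.03e-12). Ccrn4l, which encodes the rhythmic protein nocturnin, fell with MDA-MB-231 EVs, from 1770.2 ± 63.5 to 1119 ± 127 (log2 change -0.67, adjusted p = 5.94e-07), and stood at 1703 ± 47.2 with MCF10A EVs without a call. Between the 2 EVs Rgs16 was lower with MDA-MB-231 EVs by 1.05, Ccrn4l by 0.61 and the cell cycle inhibitor Cdkn1a by 0.40 on the log2 scale (adjusted p = 2.33e-10, 6.1e-06 and 8.13e-07).

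Beside these genes the proliferation markers moved with the groups. All 6 (Mki67, Top2a, Ccnb1, Cdk1, Mcm3 and Mcm5) were called higher with both EVs than with PBS, and 2 of the 6, Mki67 and Top2a, higher with MDA-MB-231 than with MCF10A EVs. Their summed level was 1559 and 1597 CPM in the PBS libraries, 1989 and 2036 in the MCF10A EV libraries, and 2236 and 2254 in the MDA-MB-231 EV libraries. Of the fibroblast markers 1, Col3a1, rose and 5 fell with MDA-MB-231 EVs, and 1, again Col3a1, rose and 7 fell with MCF10A EVs. Of the genes with a mean of at least 100 normalised reads, 24.7% were called higher and 22.5% lower with MDA-MB-231 EVs. With MCF10A EVs these shares were 24.3% and 19.1%, and 9.1% were called higher with MDA-MB-231 than with MCF10A EVs. The part of these marker changes in the clock transcripts was not tested.

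Most of the genes listed for serum and cAMP input to the clock fell with EVs. The list includes genes that these signals induce, such as Sik1, so its counts do not measure the signals' action on the clock. Of 14 such genes 1 rose and 9 fell with MDA-MB-231 EVs (median log2 change -0.69), and 9 fell with MCF10A EVs while the other 5 were not called (median -0.47). Among all genes tested 16.9% and 14.6% were called lower, and among those with a mean of at least 100 normalised reads 22.5% and 19.1%. Fos, part of the AP-1 factor, stood at 209.7 and 215 normalised reads in the PBS libraries, 112 and 113 in the MCF10A EV libraries, and 74.2 and 77.7 in the MDA-MB-231 EV libraries. Egr1, an immediate early transcription factor gene, stood at 1880.0 and 2017 normalised reads in the PBS libraries, 957 and 929 in the MCF10A EV libraries, and 880.4 and 819 in the MDA-MB-231 EV libraries. For both genes all 4 EV libraries lay below the PBS libraries, by 1.47 and 1.2 on the log2 scale with MDA-MB-231 EVs (adjusted p = 6.22e-07 and 2.24e-10) and by 0.91 and 1.05 with MCF10A EVs (adjusted p = 0.000109 and 2.94e-09). Sik1, a kinase gene induced by cAMP, fell from 495 ± 23.4 to 277 ± 4.21 with MCF10A EVs (log2 change -0.83, adjusted p = 2.97e-06) and to 313 ± 18.4 with MDA-MB-231 EVs (log2 change -0.66, adjusted p = 1.5e-05). The cAMP response factor gene Crem fell from 689 ± 20.5 to 419 ± 33.0 with MDA-MB-231 EVs (log2 change -0.72, adjusted p = 4.45e-06) and to 526 ± 52.6 with MCF10A EVs (log2 change -0.39, adjusted p = 0.00151, or 0.0752 in limma without a trend). Fosb, Nr4a1 and Dusp1 fell with both EVs as well, by 1.52, 1.84 and 0.88 with MDA-MB-231 EVs.

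Of 9 tested genes listed for glucocorticoid input 2 rose and 7 fell with MDA-MB-231 EVs (median log2 change -0.34). With MCF10A EVs 1 rose and 7 fell (median -0.24). Of all genes tested, 16.9% were called lower with MDA-MB-231 EVs and 14.6% with MCF10A EVs. Among those with a mean of at least 100 normalised reads the shares were 22.5% and 19.1%. Fkbp5, a chaperone of the glucocorticoid receptor, was the gene that rose with both, from 1201 ± 0.355 to 1558 ± 12.8 and 1771 ± 33.4 normalised reads (log2 changes 0.37 and 0.56, adjusted p = 6.42e-06 and 5.79e-08). Tsc22d3, which encodes the glucocorticoid-induced leucine zipper protein, fell from 640.2 ± 40.9 to 415 ± 27.6 and 399 ± 0.333 (log2 changes -0.62 and -0.68, adjusted p = 1.65e-05 and 4.21e-06). Errfi1, a feedback inhibitor of the EGF receptor, fell by 0.77 and 1.00 (adjusted p = 1.46e-09 and 2.63e-11), and Sgk1, which encodes a kinase induced by serum and glucocorticoids, was lower with MDA-MB-231 than with MCF10A EVs by 0.38 (adjusted p = 6.39e-06). Most genes on this list thus fell with either kind of EV, while Fkbp5 rose with both. It includes genes that glucocorticoids induce, such as Tsc22d3 and Sgk1, so the counts of the list do not measure glucocorticoid action on the clock.

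**Figure D4:**
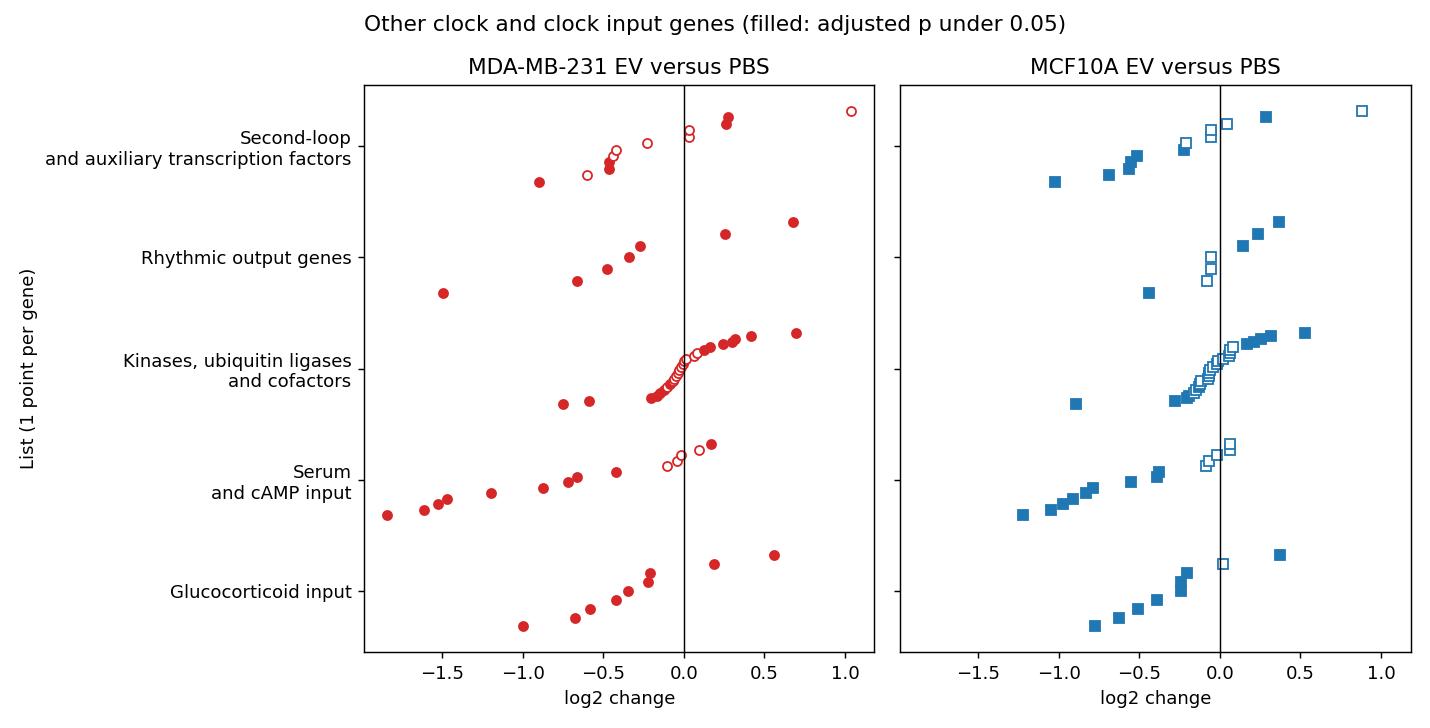
log2 change against PBS (horizontal axes) of the further clock genes and of the genes of clock inputs, with 1 point per tested gene, filled where the adjusted p was under 0.05, for MDA-MB-231 EVs (left) and MCF10A EVs (right). Most points of the serum and cAMP list lie to the left of 0, down to -1.84 for Nr4a1 on the left panel, while the kinases, ligases and cofactors lie on both sides.

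Between the 2 EVs, 7 of the 45 further clock genes were called higher and 8 lower with MDA-MB-231 EVs, and these 15 calls became 9 without MCF10A EV replicate 1 and also 9 when replicate 1 or 2 of the MDA-MB-231 EV group was left out. Of the 23 input genes, 5 were called higher and 9 lower with MDA-MB-231 than with MCF10A EVs, in all 14, and 8 without MCF10A EV replicate 1. In the fit of all 6 libraries, which gave the 15 and 14 calls, 16.9% of all genes tested were called. Of those with a mean of at least 100 normalised reads it was 23%. Counts with a library left out come from other fits and are not to be read against these shares.

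For the 6 members called in at least 2 comparisons, the genes whose levels ran most alike were found from the root-mean-square difference of the log2 values, set to their PBS mean, over the 6 libraries and 10013 candidate genes. Those nearest to Arntl were Adamts1 at 0.037, Auh at 0.048 and Phospho1 at 0.049. Nearest to Nr1d1 were Mrpl36 and Tfam, both at 0.027, and Mbd3 at 0.040. Nearest to Per1 were Nfkb1 at 0.019 and Pik3r1 and Kifap3 at 0.020, nearest to Per2 Gulp1 at 0.032, and nearest to Cry1 Stk36 at 0.020. Per3 had the most distant neighbours, Heg1 at 0.069, Mgam at 0.089 and Mn1 at 0.110. With 6 libraries in 3 groups, many genes can run alike, and the measure says nothing of shared control.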

How the data were processed

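RNA-seq had been run on 6 NIH3T3 libraries with a stranded mRNA kit on TRIzol RNA, per the labels' protocols. The submitters' processing notes name TopHat2, edgeR and the human build hg19, whereas the table holds mouse genes by mouse chromosome. What mouse build, annotation, read counter, strand setting and versions were used is not given in the sources at hand, and genes are located by the table's chromosome. The deposited table gives normalised signal, 1 value per gene and library, which has the form of edgeR's quantile-adjusted pseudo-counts: reads brought to one library size, group by group. Inverting that adjustment, with a common dispersion of 0.000591, gave whole reads for 122850 of 122850 values (100%) within a relative 1e-06. A count of 0 allows up to 3 reads, 0.102 to 0.134 CPM per library, which covers counting error only.

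Tests had been planned for counts and for normalised values, and those for normalised values were run. limma 3.58.1 (lmFit and eBayes with trend, R 4.3.3) was run on log2(value + 1) for genes that reached 1 normalised read in 2 or more libraries. All 6 libraries entered the fit, with one mean per group, 3 residual degrees of freedom and 11.5 prior ones. The pseudocount of 1 understates changes of low genes such as Dbp. Alternatives were other pseudocounts, filters and scalings, each library left out, a replicate block, and edgeR 4.0.16 and DESeq2 1.42.0 on the recovered reads. edgeR called 5554 genes with MDA-MB-231 EVs, 5160 with MCF10A EVs, both against PBS, and 2987 between the EVs. The fits were also run on simulated reads, with some well-covered genes changed in the MDA-MB-231 EV group and compared with PBS only. Of 50 genes changed 1.25-fold, limma called 39, edgeR 40 and DESeq2 33 with the right sign. Few genes were changed there, whereas 34.8% were called in the data, so it does not test the scaling of libraries.

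The members, lists and tests were chosen with earlier results of these data known. Of the 70 listed clock and input genes, those named were, per comparison and family, at most the 6 called with the largest change and a mean of at least 100 normalised reads. Tef, Ciart, Tipin, Fkbp5, Tsc22d3, Npas2, Arntl2, Csnk1d and Csnk1e, and some values of named genes in other comparisons, were added after their values were seen. Lists are given by counts, with no test of a list; some listed genes are counted but not reported singly here. Lengths and overlaps of genes came from GENCODE M21, matched by symbol for all 10 members.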

Additional observations from a re-analysis of the deposited data

Results flagged for a closer look

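Of the 10 members, 3 differed between MDA-MB-231 EVs and MCF10A EVs in the test of the difference itself, beside 16.9% of all genes tested. Each of the 3 is given as a log2 difference with its limma adjusted p. Per3 was higher with MDA-MB-231 EVs by 0.57 (adjusted p = 0.00468), with both libraries of the group above the other 4, but the call ended without MCF10A EV replicate 1 (0.55, adjusted p = 0.0536) and in limma without a trend (adjusted p = 0.136). Dbp was higher by 0.75 (adjusted p = 0.0440), a difference that rests on few reads and fell to 0.38 without MCF10A EV replicate 1 (adjusted p = 0.378). Arntl stood lower, at -0.15 (adjusted p = 0.0347), and lost its call when any one library was left out, with values from -0.17 to -0.13.

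The same test called 16.9% of all genes tested, and 23% of those with a mean of at least 100 normalised reads. It called 15 of the 45 further clock genes and 14 of the 23 input genes. Of these Hlf is given here because it was called on opposite sides of PBS, at 0.28 with MDA-MB-231 EVs (adjusted p = 0.0114) and -0.22 with MCF10A EVs (adjusted p = 0.0399). Both of these calls ended without PBS replicate 1 or 2, the first also without MDA-MB-231 EV replicate 2 (0.18, adjusted p = 0.145) and the second without MCF10A EV replicate 1 (-0.14, adjusted p = 0.308). The 2 calls against PBS also ended in DESeq2 (adjusted p = 0.054 and 0.123) and in limma without a trend (adjusted p = 0.118 and 0.192). In all, the rise lost its call in 5 of the 18 alternatives and the fall in 8. Between the EVs Hlf was higher with MDA-MB-231 EVs by 0.50 (adjusted p = 3.77e-04), a call that ended in limma without a trend (0.50, adjusted p = 0.0891).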

How the results depend on the processing

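Of 537 values of the 30 member results under the alternatives, 480 kept their direction and side of the threshold, 53 lost and 2 gained a call, and 2 changed sign. For the 70 called results of the named list genes, 1174 of 1257 values kept direction and call and 83 lost the call. Both reversals were of Clock, which was never called. Its change with MCF10A EVs ran from -0.12 to 0.03 and its difference between the 2 EVs from -0.12 to 0.03 as libraries were left out.

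Without a trend in limma, 3346 genes were called with MDA-MB-231 EVs, 2231 with MCF10A EVs and 378 between the EVs. The members called were then 3 with MDA-MB-231 EVs and 0 between the EVs (0 of 10 at an adjusted p under 0.05, against 3 with edgeR), the further clock genes 17 and 4, and the input genes between the EVs 2. Members called between the EVs numbered 1 after quantile normalisation and 1 with only the 2 groups in the fit. DESeq2 called 3 members with MDA-MB-231 EVs, and between the EVs 1 member, 9 further clock genes and 1514 genes in all.

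With each library left out in turn, the members called ran from 3 to 7 with MDA-MB-231 EVs and from 0 to 2 between the EVs. Between the EVs all genes called ran from 1425 to 2257, further clock genes from 9 to 11 and input genes from 8 to 14. In these fits the lone library of a group is assumed to vary like the others. Scaling libraries to equal totals raised the share of calls that were higher from 51.4% to 67.8% with MDA-MB-231 EVs and from 40.4% to 61.8% between the EVs, with medians of all genes shifted to 0.07 and 0.04. Same-numbered libraries did not deviate together (correlations -0.006, -0.004 and 0.019 over 10309 genes), and with a replicate block 7, 6 and 3 members and 5187, 4746 and 2560 genes were called. The cause of these differences was not tested. With 2 libraries a group, small changes of low genes such as Dbp were not detectable.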
